A study of Mus musculus with 9 samples.

Results

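Ifetroban was compared with vehicle in mouse left ventricle over both genotypes of the study, with all 9 of its 9 RNA-seq libraries: 5 by title from mice given ifetroban and 4 from mice given vehicle. Ifetroban is a small-molecule antagonist of the thromboxane-prostanoid receptor. The ifetroban libraries were 3 from delta-sarcoglycan knockout (KO) and 2 from wild-type (WT) mice, dosed at 25 mg/kg/day through the drinking water since weaning. The vehicle libraries were 2 from KO and 2 from WT mice that drank normal water. Every mouse was on a C57BL/6 background, had running wheels for some periods, which the labels describe as a way to bring on the cardiomyopathy, and was 6 months old when the heart was perfused with PBS and the left ventricle taken. Delta-sarcoglycan, encoded by Sgcd, is part of the dystrophin-associated complex that anchors the muscle cell membrane, and its loss causes limb-girdle muscular dystrophy with cardiomyopathy. The labels do not describe the knockout allele or say that replicates came from separate animals, so p-values measure only the spread between these libraries, which may be technical. The comparison asks what thromboxane-prostanoid receptor antagonism does to the ventricular transcriptome irrespective of genotype, and it was made with an additive model of genotype and treatment.

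Thromboxane A2 is made from arachidonic acid by cyclooxygenases and thromboxane synthase, chiefly in platelets and macrophages. Its receptor, encoded by Tbxa2r, couples to Gq, and so raises calcium, contracts vascular smooth muscle and activates platelets. Isoprostanes, which form when lipids are oxidised in injured tissue, also act on this receptor, and in the heart its activation can raise calcium in cardiomyocytes.

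The counts came from 21510263 to 30182955 estimated reads per library, and levels are given as CPM, the share of a library's counts held by a gene, scaled with TMM factors. In the library labelled KO ifetroban replicate 1 the title says ifetroban and the treatment field says vehicle. The library labelled WT vehicle replicate 1 had an Sgcd level inside the KO range. Its levels of Ankrd1 (833 CPM) and Tnc (0.872 CPM) were near those of the other WT libraries and below all KO libraries, which had at least 1984 and 6.38 CPM. Across 13051 protein-coding genes, the deviation of a gene from its mean level fell with transcript length in 4 libraries (KO ifetroban replicate 1, both KO vehicle libraries and WT vehicle replicate 1) and rose with it in the other 5, with Spearman coefficients of -0.40 to -0.52 and 0.38 to 0.43 across genes. These are called the negative-slope and the positive-slope libraries. The positive set thus held 4 of the 5 ifetroban libraries and 1 of the 4 vehicle libraries. KO ifetroban replicate 3 also carried transcripts of fast skeletal muscle, with 202 counts of Myh1 where no other library had more than 4. The cardiomyocyte markers, 8 of 8 tested, summed to 40023 to 50171 CPM with ifetroban and 37941 to 48392 CPM with vehicle, and Myl7, the atrial light chain gene, had at most 7 counts in a library. Replicates of a group were not duplicates of each other, since their chi-square per degree of freedom was 11.8 to 70.8.

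Sgcd, the deleted gene (mm10 chromosome 11, 46896253 to 47988969, minus strand), was read at 7.30, 12.9 and 13.3 CPM in KO ifetroban, and at 23.7 and 23.5 CPM in WT ifetroban. KO vehicle libraries had 9.64 and 8.63 CPM of it, and those labelled WT vehicle 8.36 and 20.9 CPM. Counts are for all exons together and the labels do not name the deleted exons, so these levels do not fully check the genotype labels. Its treatment difference was 0.47 ± 0.25 on the log2 scale (SE) and did not pass the test, and it was -0.05 with the slope set as a term in the model.

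No gene passed the test for ifetroban over both genotypes. Of 15549 genes tested with edgeR's quasi-likelihood test, 0 were higher and 0 lower (0% and 0%) at an adjusted p under 0.05, and the smallest adjusted p was 0.545. At an unadjusted p under 0.05 there were 797 higher genes (5.13%) and 441 lower genes (2.84%), or 1238 in all (7.96%). limma-voom also called 0 genes, with 1248 at an unadjusted p under 0.05. The DESeq2 Wald test called 2 genes (0.0129%), both higher with ifetroban, with 1335 (8.59%) at an unadjusted p under 0.05. Within the negative-slope libraries alone, where KO ifetroban replicate 1 is the only ifetroban library, edgeR called 28 genes (0.18%), 14 higher and 14 lower (0.09% each). That fit had 4 libraries and 1 residual degree of freedom, with the spread taken largely from all genes together, so its calls compare that library, whose labels conflict, with 2 KO vehicle libraries and do not measure the treatment. The median SE of a log2 change was 0.146, and the 95% interval of a typical gene reached 0.32 to either side of its estimate. Even before adjustment, a smaller estimate would not have reached a p under 0.05 for such a gene at this number of libraries. All 5 ifetroban libraries lay above all 4 vehicle libraries for 92 genes (0.592%) and below them for 78 (0.502%).

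The direction of the differences followed transcript length. Protein-coding genes were put into 10 bins by length. The median log2 change was -0.20 in the bin of the shortest transcripts and 0.26 in the bin of the longest, with a Spearman coefficient of 0.57 across 13051 genes, which are not independent replicates. Genes at an unadjusted p under 0.05 had a median transcript length of 6075 bases where they were higher and 1808 bases where they were lower, against 3458 bases over all. The gradient was present in KO, with -0.17 for the shortest and 0.27 for the longest bin, and in WT, with -0.24 and 0.26. With an offset for length and GC content the coefficient was 0.11, and with the slope set as a term it was -0.16. Since the positive-slope set held most ifetroban libraries, values under the slope term are given beside many of those below. They rest on few libraries, because the negative set holds 1 ifetroban library, the one whose labels conflict, and the positive set 1 vehicle library, WT vehicle replicate 2.

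**Figure D1:**
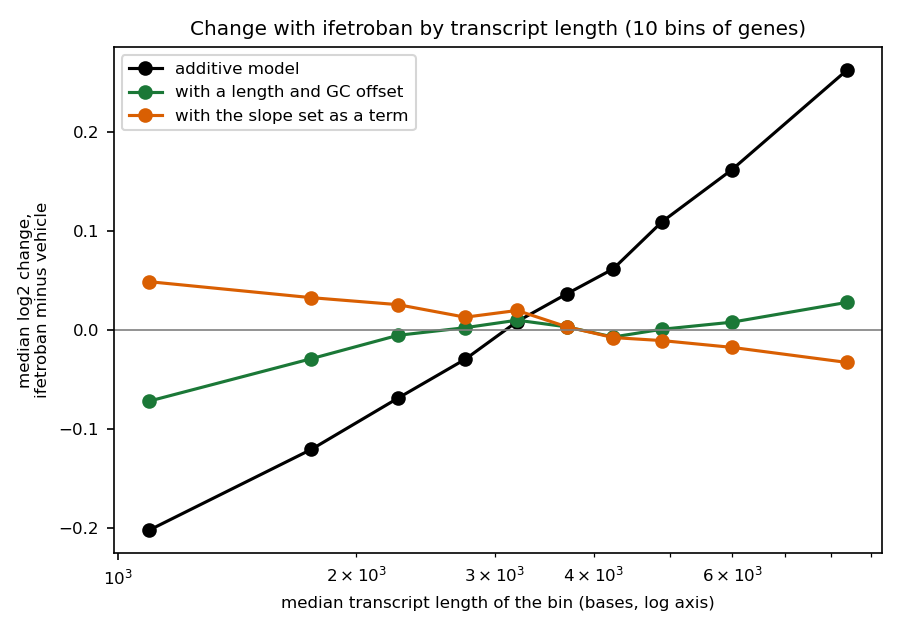
Median log2 change, ifetroban minus vehicle (vertical axis), in 10 bins of protein-coding genes ordered by transcript length (horizontal log axis, bases), in the additive model, with a length and GC offset, and with the slope set as a term. The additive model runs from -0.20 in the shortest bin to 0.26 in the longest, and the other lines stay nearer 0.

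Leaving out predicted symbols and genes averaging under 1 CPM, those with the smallest p that were higher were Ucp3, Amd-ps3, Flnc, Ddit4 and Bcl9l. Ucp3 (mm10 chromosome 7, 100472990 to 100486432, plus strand) encodes a carrier of the inner mitochondrial membrane in muscle and heart whose transcription responds to fatty acids through PPAR receptors. It was at 27.7, 32.1 and 32.0 CPM in KO ifetroban and 42.9 and 33.8 CPM in WT ifetroban, against 18.9 and 13.9 CPM in vehicle-treated KO and 28.9 and 22.3 CPM in vehicle-treated WT. Within each genotype every ifetroban library was above every vehicle library, and the ranges over both genotypes overlapped, because KO ifetroban replicate 1 was below WT vehicle replicate 1. The log2 change was 0.75 ± 0.14 (95% interval 0.45 to 1.06; edgeR, unadjusted p = 0.000215, adjusted p = 0.545). DESeq2 gave 0.74 with an adjusted p of 0.0137. The change was 0.90 ± 0.19 in KO and 0.58 ± 0.20 in WT. It was 0.76 with the slope set as a term and 0.89 without the 2 libraries whose labels are in doubt. Counting KO ifetroban replicate 1 as vehicle gave 0.63.

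The bases before the transcription start are shown for Ucp3, as the named gene that DESeq2 called, and for Tbxa2r, as the target of the drug. They are the 250 bases upstream of the RefSeq start (GRCm38.p6, both genes on the plus strand, 5′ to 3′), from chr7:100472741-100472990 and chr10:81328453-81328702. Capitals mark the nuclear receptor core motif AGGTCA on either strand, which PPAR receptors bind as a spaced pair.
Ucp3: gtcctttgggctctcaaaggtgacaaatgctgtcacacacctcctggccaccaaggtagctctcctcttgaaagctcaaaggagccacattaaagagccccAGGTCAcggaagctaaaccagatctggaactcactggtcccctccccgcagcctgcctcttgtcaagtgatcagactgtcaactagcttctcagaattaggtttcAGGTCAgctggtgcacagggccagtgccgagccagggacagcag
Tbxa2r: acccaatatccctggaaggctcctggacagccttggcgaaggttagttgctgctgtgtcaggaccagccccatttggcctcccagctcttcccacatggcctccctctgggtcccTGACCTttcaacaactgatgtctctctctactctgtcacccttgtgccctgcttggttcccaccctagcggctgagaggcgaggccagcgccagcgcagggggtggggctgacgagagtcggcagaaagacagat
Ucp3 had 2 matches, starting 149 and 44 bases before the start and so not closely spaced as a pair, and Tbxa2r had 1, at 135 bases. Of 32851 windows of the same length in the table, 14.02% held at least 1 match to this motif. The E-box CACGTG, found in 6.02% of windows, and TATAAA, found in 12.37%, were in neither sequence, and no match overlapped another.

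Flnc (chromosome 6, 29433256 to 29461883, plus strand), which encodes the actin cross-linker filamin C of the Z-disc and costamere, was at 474, 626 and 566 CPM in KO ifetroban and 444 and 426 CPM in WT ifetroban. Levels were 353 and 339 CPM in vehicle-treated KO and 301 and 388 CPM in vehicle-treated WT, so that every ifetroban library was above every vehicle library. The log2 change was 0.52 ± 0.12 (unadjusted p = 0.00125) and 0.31 with the slope set as a term. Its transcript is 9038 bases long. Xirp2, which encodes an actin-binding Xin repeat protein of the Z-disc and intercalated disc, also had no overlap, at 1017, 1182 and 1143 CPM in KO ifetroban and 1134 and 1128 CPM in WT ifetroban, against 746 and 960 CPM in vehicle-treated KO and 824 and 902 CPM in vehicle-treated WT. Its change was 0.39 ± 0.10, 0.29 with the slope set as a term and 0.11 with the length and GC offset.

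Ddit4 (chromosome 10, 59949675 to 59951770, minus strand), which encodes a stress-induced inhibitor of mTORC1, was at 22.2, 27.8 and 34.1 CPM in KO ifetroban and 27.6 and 40.3 CPM in WT ifetroban, against 15.3 and 18.7 CPM in vehicle-treated KO and 18.0 and 24.8 CPM in vehicle-treated WT. Ifetroban libraries were higher within each genotype, and the change was 0.69 ± 0.16 (0.42 with the slope set as a term). Bcl9l (chromosome 9, 44499136 to 44510388, plus strand), which encodes a coactivator of beta-catenin, ranged from 31.3 to 46.2 CPM with ifetroban and from 24.9 to 38.4 CPM with vehicle, a change of 0.54 ± 0.13 (0.27 with the slope set as a term). Amd-ps3 (chromosome 18, 64448519 to 64450014, minus strand) is a processed pseudogene of S-adenosylmethionine decarboxylase and ranged from 14.8 to 35.9 CPM with ifetroban and from 13.3 to 18.9 CPM with vehicle. Its change of 0.75 ± 0.17 is uncertain, since it can share reads with its parent genes: Amd1 differed by 0.11 ± 0.15 and Amd2 by 0.34 ± 0.09.

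The other gene that DESeq2 called, Gm20775, is a Y-linked unprocessed pseudogene of a multicopy family and was chosen here after its values were seen. It had 25.2, 42.5 and 12.4 estimated counts in KO ifetroban and 31.8 and 36.2 in WT ifetroban, against 0.076 and 0.41 in KO vehicle and 0.024 and 11.4 in WT vehicle. Every ifetroban library was above every vehicle library, but the nearest were only 12.4 against 11.4 counts. Reads of such a family can also be assigned to different copies, so the values are uncertain.

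Under the same limits, the genes with the smallest p that were lower were Rarres2, RP23-4F16.12, Pigp, Nbl1 and Cyp26b1. Rarres2 (chromosome 6, 48569696 to 48572789, minus strand) encodes chemerin, a secreted chemoattractant and adipokine. It was at 16.0, 14.3 and 14.8 CPM in KO ifetroban and 12.6 and 10.9 CPM in WT ifetroban, against 18.9 and 22.4 CPM in vehicle-treated KO and 20.5 and 15.0 CPM in vehicle-treated WT. It was lower with ifetroban within each genotype, and WT vehicle replicate 2 lay inside the ifetroban range. The change was -0.52 ± 0.12 (unadjusted p = 0.000986) and -0.36 with the slope set as a term.

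Pigp (chromosome 16, 94358763 to 94371015, minus strand) encodes a subunit of the enzyme that starts the synthesis of glycosylphosphatidylinositol anchors. It was at 24.3, 20.2 and 16.0 CPM in KO ifetroban and 23.5 and 21.9 CPM in WT ifetroban, against 35.8 and 29.5 CPM in vehicle-treated KO and 44.3 and 25.0 CPM in vehicle-treated WT. No library overlapped between the treatments, by a margin of less than 1 CPM, and the change was -0.66 ± 0.17 (-0.28 with the slope set as a term). RP23-4F16.12 (chromosome 6, 87788861 to 87835795, minus strand), a clone-named gene annotated as protein-coding, had no overlap either, at 6.48 to 9.44 CPM with ifetroban and 9.60 to 12.2 CPM with vehicle, a change of -0.58 ± 0.14.

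Nbl1 (chromosome 4, 139082284 to 139092993, minus strand), which encodes a secreted antagonist of bone morphogenetic proteins, was at 16.2, 15.4 and 21.6 CPM in KO ifetroban and 10.3 and 10.2 CPM in WT ifetroban, against 24.8 and 26.5 CPM in vehicle-treated KO and 15.4 and 11.5 CPM in vehicle-treated WT. The treatments separated within each genotype, with a change of -0.47 ± 0.13, and -0.42 with the slope set as a term. Cyp26b1 (chromosome 6, 84571414 to 84593908, minus strand), which encodes an enzyme that degrades retinoic acid, had the largest change among these 10 genes, -2.01 ± 0.55. It was at 5.06, 3.02 and 3.07 CPM in KO ifetroban and 6.66 and 2.12 CPM in WT ifetroban, against 38.04 and 7.23 CPM in vehicle-treated KO and 5.90 and 14.4 CPM in vehicle-treated WT. KO vehicle replicate 1 stood far above every other library, and without it the change was -1.12.

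**Figure D2:**
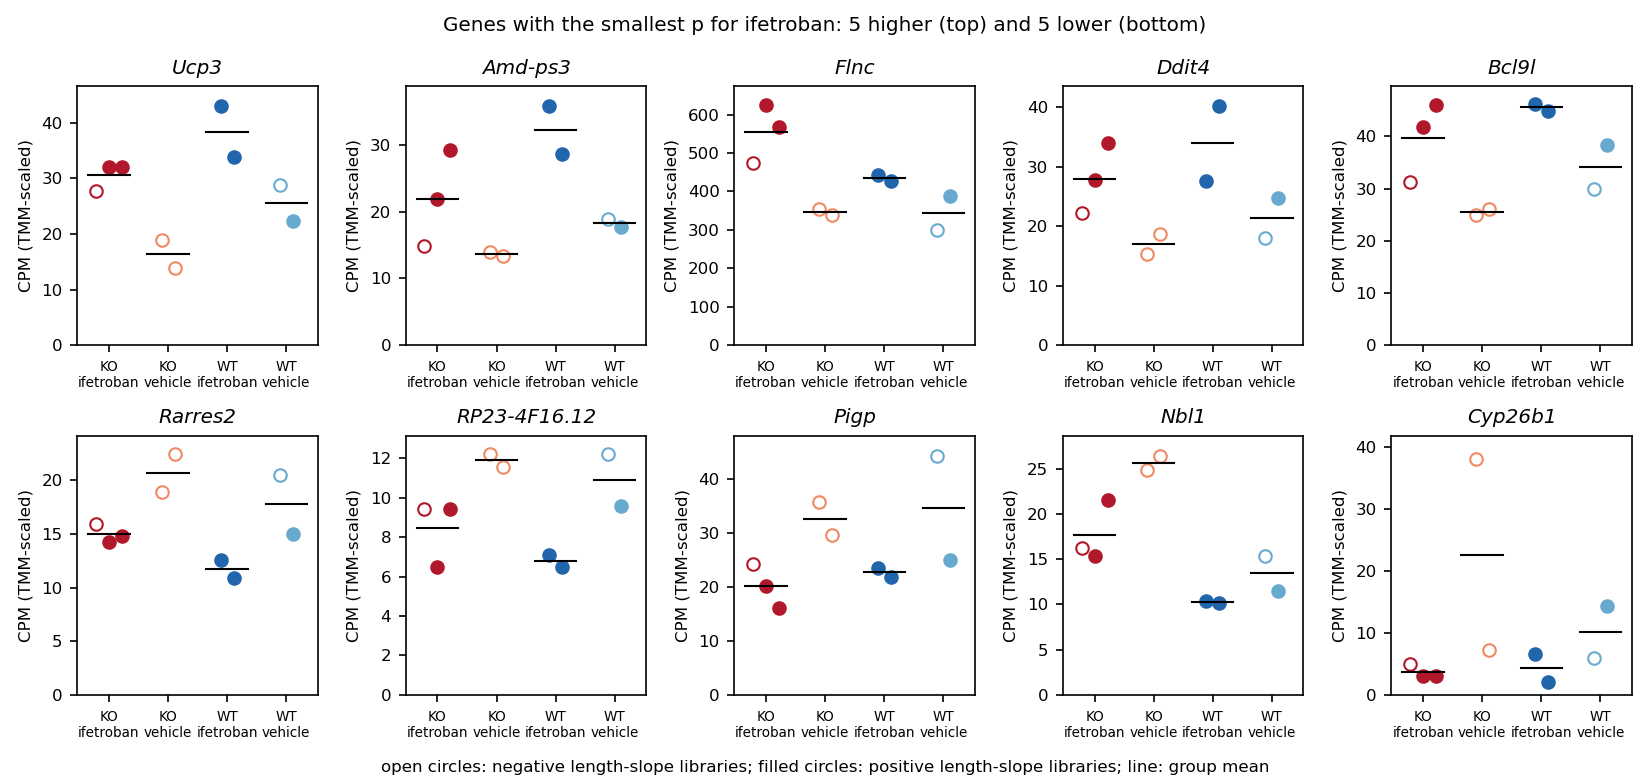
CPM (vertical axis) of the 10 genes with the smallest p for ifetroban leaving out predicted symbols and averages under 1 CPM, 5 higher and 5 lower, in KO ifetroban, KO vehicle, WT ifetroban and WT vehicle libraries. Each circle is a library, open for negative-slope and filled for positive-slope ones, and each line is a group mean; Flnc lies above, and Pigp and RP23-4F16.12 below, all vehicle libraries in every ifetroban library.

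The receptor that ifetroban blocks was measured at low levels. Tbxa2r (chromosome 10, 81328732 to 81335171, plus strand) was at 3.23, 1.81 and 3.79 CPM in KO ifetroban and 3.43 and 1.87 CPM in WT ifetroban, against 5.24 and 5.06 CPM in vehicle-treated KO and 2.41 and 3.12 CPM in vehicle-treated WT. In KO the ifetroban libraries were all below the vehicle libraries, while in WT they lay on both sides of them. The change over both genotypes was -0.50 ± 0.26 (95% interval -1.08 to 0.09; edgeR, unadjusted p = 0.0881, adjusted p = 0.545). It was -0.82 ± 0.33 in KO and -0.06 ± 0.39 in WT, and the difference between those did not pass the test (interaction, unadjusted p = 0.174). With the slope set as a term it was -0.47, and without the 2 libraries in doubt -0.65.

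Of 9 prostanoid receptor genes 5 were tested, and 0 passed in either direction, with a median log2 change of -0.08 against 0.008 over all genes. Ptgir, the prostacyclin receptor gene, differed by -0.08 ± 0.15, and Ptgfr, the receptor gene for prostaglandin F2-alpha, by -0.00 ± 0.23. Ptger4 differed by -0.34 ± 0.26 and Ptger1 by 0.34 ± 0.36, both receptor genes for prostaglandin E2. The other prostaglandin E2 receptor genes, Ptger2 and Ptger3, and Ptgdr2, a prostaglandin D2 receptor gene, had at most 13 counts in a library and were not tested, and Ptgdr is not analysed here.

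All 20 genes of prostanoid synthesis and clearance were tested, 0 passed, and the median was -0.07. Tbxas1, which encodes thromboxane synthase, was at 4.21, 3.18 and 3.79 CPM in KO ifetroban and 1.66 and 1.58 CPM in WT ifetroban, against 3.57 and 3.13 CPM in vehicle-treated KO and 1.44 and 2.31 CPM in vehicle-treated WT. The treatments overlapped in both genotypes, with a change of -0.00 ± 0.18. Ptgs1, for the constitutive cyclooxygenase, differed by -0.05 ± 0.14 and was at 4.33 to 7.02 CPM with ifetroban and 5.47 to 6.75 CPM with vehicle. Ptgs2, for the inducible cyclooxygenase, was at 4.59, 1.97 and 1.53 CPM in KO ifetroban and 0.767 and 0.541 CPM in WT ifetroban, against 3.72 and 2.37 CPM in vehicle-treated KO and 2.92 and 0.445 CPM in vehicle-treated WT. Its change of -0.61 ± 0.51 turned to 0.55 with the slope set as a term. Ptgds, for the lipocalin-type prostaglandin D synthase, had the smallest p of the list, at 453, 347 and 347 CPM in KO ifetroban and 285 and 341 CPM in WT ifetroban, against 477 and 474 CPM in vehicle-treated KO and 628 and 395 CPM in vehicle-treated WT. It was lower with ifetroban within each genotype (-0.50 ± 0.15, unadjusted p = 0.00865), and by -0.20 with the slope set as a term.

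**Figure D3:**
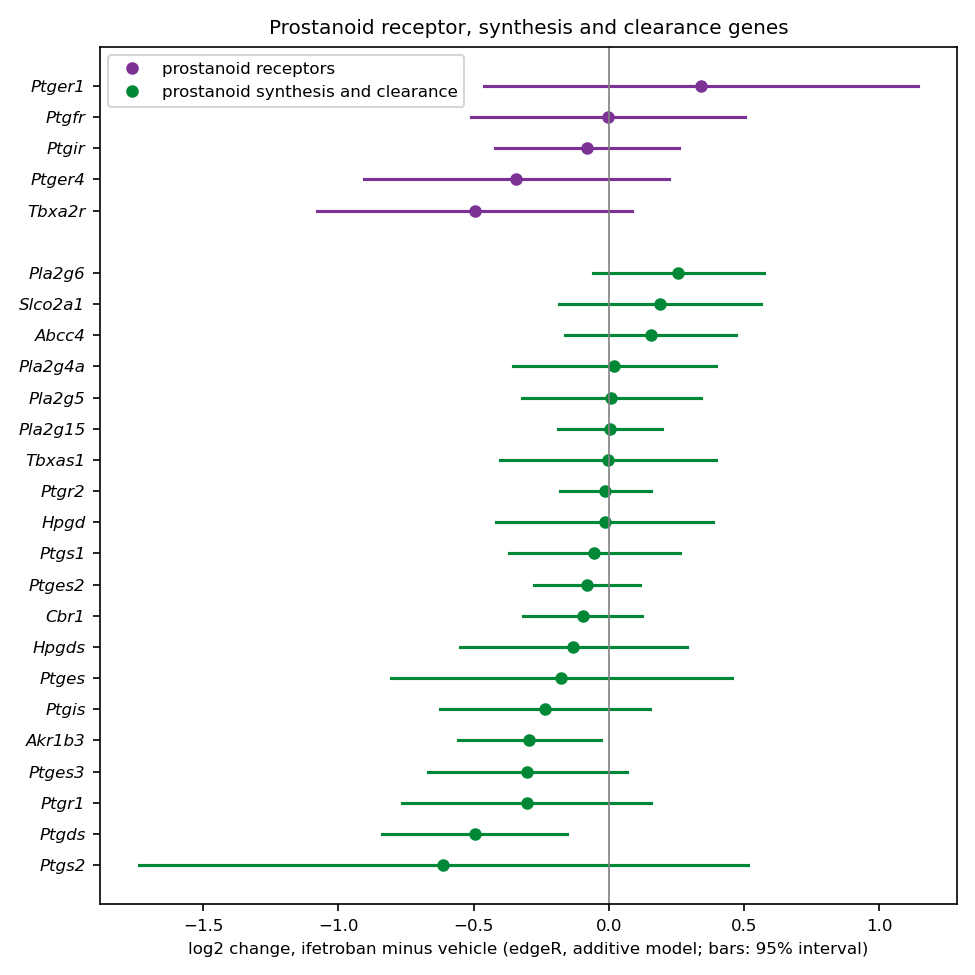
Log2 change, ifetroban minus vehicle (horizontal axis), with its 95% interval, for the 5 tested prostanoid receptor genes and the 20 genes of prostanoid synthesis and clearance (rows). The intervals of Ptgds and Akr1b3 lie below 0 without adjustment, and all others include 0.

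Downstream of the receptor, the genes of calcineurin, NFAT and MEF2, which respond to calcium, had a median of 0.05 over 18 genes with 0 passing, and Mef2d differed by 0.28 ± 0.10. The median was -0.01 and Mef2d at 0.12 with the slope set as a term.

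Genes of hypertrophy and stretch showed no change that passed. Nppa, the gene of atrial natriuretic peptide, was at 705, 363 and 349 CPM in KO ifetroban and 202 and 272 CPM in WT ifetroban, against 905 and 863 CPM in vehicle-treated KO and 213 and 202 CPM in vehicle-treated WT. All KO ifetroban libraries were below the KO vehicle libraries, and the WT groups overlapped, with a change of -0.91 ± 0.28 in KO and 0.19 ± 0.31 in WT. The interaction had an unadjusted p of 0.0262 and an adjusted p of 1.00 (edgeR), and the change over both genotypes was -0.42 ± 0.26. It was -0.05 with the slope set as a term, -0.56 with KO ifetroban replicate 1 counted as vehicle and -0.75 without the 2 libraries in doubt. Within the positive-slope libraries it was 0.22. These hold no KO vehicle library, so that value compares WT libraries and does not measure the change in KO. Nppb, for brain natriuretic peptide, differed by -0.16 ± 0.20, and Ankrd1, for a stretch-responsive ankyrin repeat protein, by -0.14 ± 0.12. Myh7, for the beta-myosin heavy chain, was at 199, 296 and 371 CPM in KO ifetroban and 256 and 368 CPM in WT ifetroban, against 192 and 667 CPM in vehicle-treated KO and 162 and 158 CPM in vehicle-treated WT. Its change was 0.10 ± 0.40 with a sign that depended on which library was left out. Of 17 tested cardiac stress and fetal genes 0 passed and 9 had a log2 change above 0, compared with 51.3% of all genes (median 0.10).

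Genes of excitation and the membrane complex lay mostly above 0, with 0 passing. Of 28 tested genes of calcium handling and excitation 21 were above 0, where 51.3% of all genes were. The median was 0.17, and -0.02 with the slope set as a term. Ryr2, for the calcium release channel, was at 1021, 2144 and 1993 CPM in KO ifetroban and 2152 and 2133 CPM in WT ifetroban, against 971 and 1061 CPM in vehicle-treated KO and 1131 and 2209 CPM in vehicle-treated WT. All 4 negative-slope libraries were at or below 1131 CPM and all 5 positive-slope libraries at or above 1993 CPM, whatever the treatment, and the change of 0.58 ± 0.24 was -0.02 with the slope set as a term. Cacna1c, for the L-type calcium channel, was likewise at 0.46 ± 0.19 and -0.01. The dystrophin-sarcoglycan complex had a median of 0.12 over 16 genes, with Dmd, for dystrophin, at 0.49 ± 0.18, and the sarcomere list 0.11 over 20 genes, with Neb, for nebulin, at 0.67 ± 0.29. With the slope set as a term, Dmd was at 0.05 and Neb at 0.16.

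Genes of fatty acid use did not pass the test. Of 35 tested genes of fatty acid oxidation and PPAR targets 21 were above 0, where 51.3% of all genes were, and 0 passed. The median was 0.07 (0.16 in KO and -0.06 in WT). At an unadjusted p under 0.05, 5 were higher (Ucp3, Cpt1a, Angptl4, Ppara and Ppargc1b) and 0 lower, where 5.13% of all genes were higher and 2.84% lower. Cpt1a, for the carnitine transferase that admits fatty acids to mitochondria, was at 37.9, 48.8 and 56.4 CPM in KO ifetroban and 52.8 and 52.6 CPM in WT ifetroban, against 34.3 and 37.6 CPM in vehicle-treated KO and 30.7 and 45.2 CPM in vehicle-treated WT (0.44 ± 0.14). Every ifetroban library was above the vehicle libraries of its genotype. Angptl4, for a secreted inhibitor of lipoprotein lipase, was at 12.5, 12.2 and 5.005 CPM in KO ifetroban and 3.47 and 6.79 CPM in WT ifetroban, against 4.14 and 3.81 CPM in vehicle-treated KO and 4.10 and 1.66 CPM in vehicle-treated WT (1.12 ± 0.34). The treatments overlapped in WT and not in KO. Ppara, for the PPAR-alpha receptor, ranged from 15.8 to 64.5 CPM with ifetroban and from 18.8 to 47.1 CPM with vehicle (0.82 ± 0.31), and was high in all positive-slope libraries.

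Nuclear-encoded oxidative phosphorylation genes were mostly below 0. Of 43 genes 40 had a negative change, where 51.3% of all genes were above 0. Of the 43, 0 passed and none had an unadjusted p under 0.05, with a median of -0.20. Their median transcript length was 1410 bases, and the median change was 0.05 with the slope set as a term. Ndufa5, a complex I subunit gene with the smallest p of the list, differed by -0.38 ± 0.17 (0.009 with the slope set as a term). Glycolysis genes had a median of -0.02 over 28 genes, with Pfkfb1, for a regulatory enzyme, at 0.46 ± 0.19.

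Matrix and fibroblast genes did not pass either, and less RNA per cell cannot be told apart from fewer cells in such samples. Of 53 tested genes of extracellular matrix and fibrosis 27 were above 0, where 51.3% of all genes were. The median was 0.007 (-0.15 with the slope set as a term). At an unadjusted p under 0.05, Tnc, Spp1 and Fn1 were higher, and Dcn, Lum and Mfap5 lower. That is 3 of 53 in each direction, where 5.13% of all genes were higher and 2.84% lower. Tnc, for the matricellular protein tenascin C of injured tissue, was at 41.7, 48.4 and 16.5 CPM in KO ifetroban and 2.91 and 0.958 CPM in WT ifetroban, against 15.4 and 6.38 CPM in vehicle-treated KO and 0.872 and 1.17 CPM in vehicle-treated WT (1.48 ± 0.44). All KO ifetroban libraries were above the KO vehicle libraries. Spp1, for osteopontin, a cytokine of macrophages in injured muscle, was at 58.0, 21.1 and 6.38 CPM in KO ifetroban and 0.767 and 0.458 CPM in WT ifetroban, against 5.50 and 2.05 CPM in vehicle-treated KO and 0.205 and 0.324 CPM in vehicle-treated WT (2.66 ± 0.77). The highest Spp1 value was in KO ifetroban replicate 1, whose labels conflict. The change of Tnc was 0.70 with that library counted as vehicle, 1.38 without it and 1.65 with the slope set as a term.

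Fibroblast markers had a median of -0.17 over 16 genes, with 0 passing and 6 lower at an unadjusted p under 0.05 (Thy1, Mgp, Dcn, Lum, Dpt and Pi16), where 2.84% of all genes were lower. The median was -0.23 in KO and 0.07 in WT, -0.26 with the slope set as a term, -0.02 with KO ifetroban replicate 1 counted as vehicle, and 0.006 without KO vehicle replicate 2. Dcn, for the proteoglycan decorin, was at 344, 359 and 412 CPM in KO ifetroban and 315 and 343 CPM in WT ifetroban, against 489 and 520 CPM in vehicle-treated KO and 359 and 338 CPM in vehicle-treated WT (-0.28 ± 0.10). Its KO groups did not overlap and its WT groups did. Thy1, a surface glycoprotein gene, was at 5.91 to 9.64 CPM with ifetroban and 9.23 to 12.4 CPM with vehicle (-0.37 ± 0.11). Smooth muscle and pericyte markers had a median of -0.04 over 14 genes (-0.19 with the slope set as a term). Among them Kcnj8, for a potassium channel of pericytes, had no overlap, at 37.4 to 47.0 CPM with ifetroban and 48.6 to 53.0 CPM with vehicle (-0.24 ± 0.09). Endothelial markers had a median of 0.10 over 15 genes (0.001 with that term), with Emcn, for endomucin, at -0.25 ± 0.09.

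Immune lists had 0 genes passing and medians near 0: 0.02 over 33 genes of cytokines, chemokines and adhesion, -0.10 over 29 interferon response genes, -0.04 over 28 macrophage and myeloid markers and -0.07 over 8 lymphocyte markers. The cytokine median was 0.14 and the interferon median -0.24 with the slope set as a term. Ccr2, a receptor gene of recruited monocytes, was at 24.7, 14.4 and 11.5 CPM in KO ifetroban and 6.66 and 2.46 CPM in WT ifetroban, against 8.81 and 5.34 CPM in vehicle-treated KO and 3.13 and 3.56 CPM in vehicle-treated WT (0.92 ± 0.34). With KO ifetroban replicate 1 counted as vehicle it was at 0.18, and without that library at 0.68. The slope term gave 1.21. Folr2, a marker of resident macrophages, was at 7.79 to 9.85 CPM with ifetroban and 9.11 to 13.8 CPM with vehicle (-0.40 ± 0.13). Of the 28 macrophage and myeloid markers 13 were above 0 and 15 below, where 51.3% of all genes were above 0. At an unadjusted p under 0.05, Lgals3 was higher and Folr2, C1qb and C1qc lower, where 5.13% of all genes were higher and 2.84% lower. The other genes with the smallest p of their lists were Ifi27l2a, an interferon-induced gene (-0.58 ± 0.22), and Ighm, for the IgM heavy chain (-0.25 ± 0.16).

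Blood cell and early response genes had the lowest list medians, with 0 passing. Erythroid markers had a median of -1.12 over 6 genes (-0.37 in KO and -1.95 in WT), which was -0.44 with the slope set as a term and -0.55 without WT vehicle replicate 1. Their summed level was 159 to 689 CPM with ifetroban and 226 to 1646 CPM with vehicle. Hbb-bs, an adult beta-globin gene, was at 278, 101 and 281 CPM in KO ifetroban and 63.4 and 164 CPM in WT ifetroban, against 510 and 92.2 CPM in vehicle-treated KO and 634 and 226 CPM in vehicle-treated WT (-1.13 ± 0.62). Without WT vehicle replicate 1 it was at -0.65, and with the slope set as a term at -0.55. Platelet markers had a median of -0.66 over 10 genes (-0.04 with the slope set as a term and -0.26 without WT vehicle replicate 1), with a summed level of 28.5 to 44.6 CPM with ifetroban and 34.2 to 50.9 CPM with vehicle. P2ry12, the receptor gene that clopidogrel targets, differed by -0.54 ± 0.24.

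Immediate early genes, which are induced within minutes of a stimulus such as tissue handling or stretch, had a median of -0.54 over 24 genes. Of these 20 were below 0, where 51.3% of all genes were above 0. The median was -0.20 in KO and -0.82 in WT, and -0.11 without WT vehicle replicate 1. Nr4a1, an orphan nuclear receptor gene, was at 65.8, 24.0 and 13.2 CPM in KO ifetroban and 9.004 and 13.1 CPM in WT ifetroban, against 112 and 29.7 CPM in vehicle-treated KO and 164 and 12.9 CPM in vehicle-treated WT (-1.93 ± 0.83). It was highest in WT vehicle replicate 1, KO vehicle replicate 1 and KO ifetroban replicate 1, all negative-slope libraries, and the change was -0.15 with the slope set as a term, where the list's median was 0.11. Platelet and immediate early genes were thus high in the same 3 libraries, and their part in other differences was not tested.

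**Figure D4:**
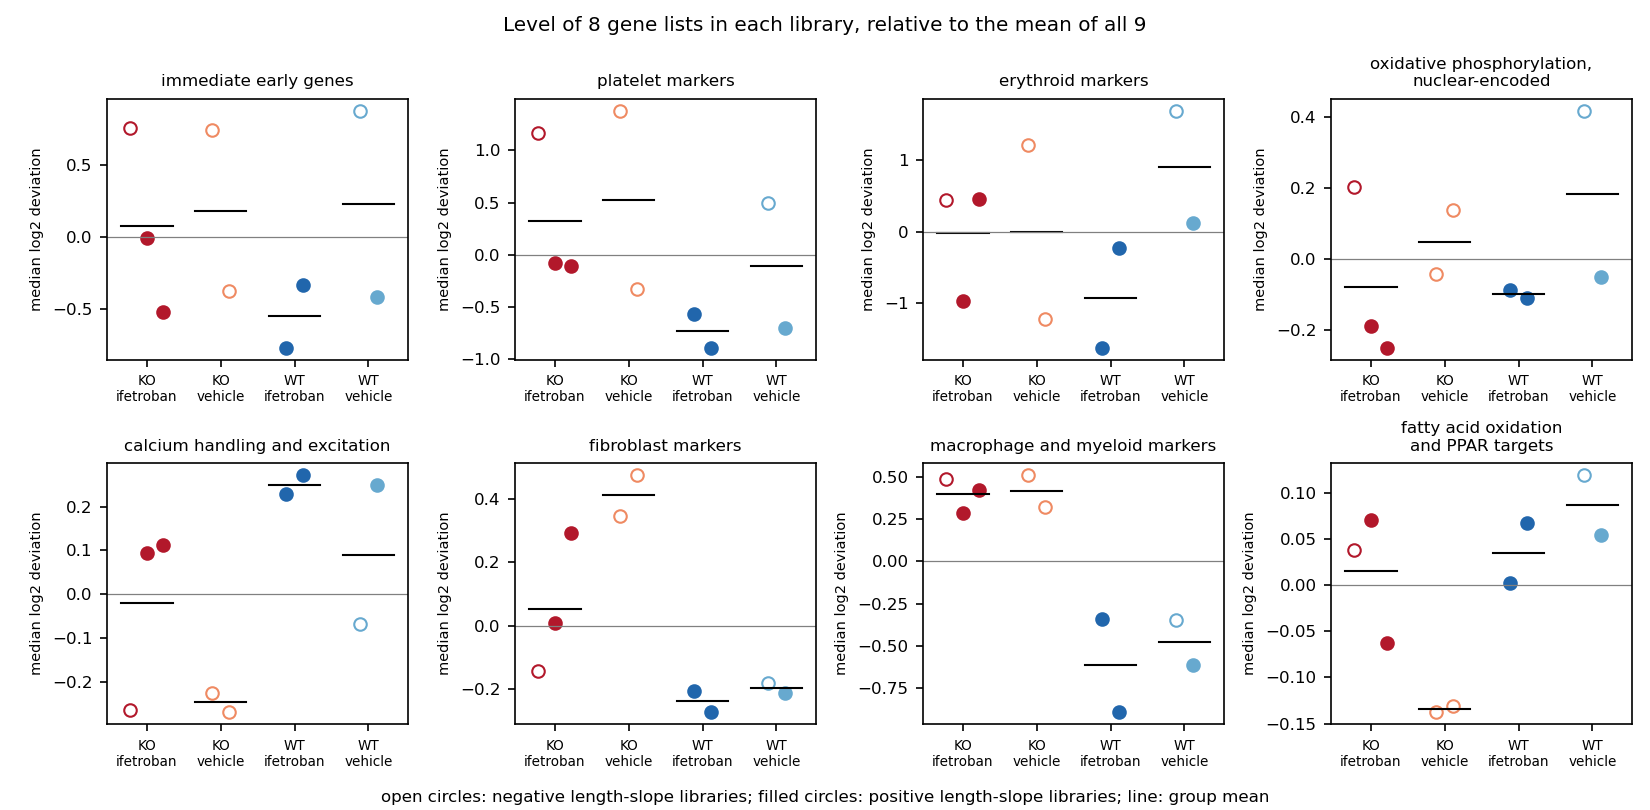
Median log2 deviation of the members of 8 gene lists from their mean over the 9 libraries (vertical axis), in KO ifetroban, KO vehicle, WT ifetroban and WT vehicle libraries. Circles are libraries, open for negative-slope and filled for positive-slope ones, and lines are group means; immediate early genes are above 0.7 in 3 of the 4 open circles and at or below 0 in all filled ones.

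The remaining lists had 0 genes passing in either direction. Medians were -0.14 over 28 antioxidant and NRF2 genes, -0.05 over 19 heat shock protein genes, -0.01 over 24 unfolded protein and integrated stress response genes, -0.00 over 17 genes of muscle atrophy and growth, 0.009 over 20 circadian genes and 0.11 over 23 cell cycle genes. Under the slope term the antioxidant median was 0.04 and the heat shock median 0.12. The cell cycle median was -0.21 in KO and 0.64 in WT, and it ran from -0.11 without WT ifetroban replicate 1 to 0.35 without KO vehicle replicate 2. Txnrd1, for a thioredoxin reductase, was at 68.1 to 85.9 CPM with ifetroban and 54.3 to 70.9 CPM with vehicle (0.29 ± 0.09). Igf1r, for the insulin-like growth factor receptor, differed by 0.76 ± 0.26, and by 0.17 with the slope set as a term. The genes with the smallest p of the other lists were Hspe1, for a mitochondrial chaperonin (-0.33 ± 0.15), Ern1, for an unfolded protein sensor (0.32 ± 0.16), Nr1d1, for a clock repressor (-0.31 ± 0.19), and Aurkb, for a mitotic kinase (0.87 ± 0.47). Hspe1 was at 0.008 and Ern1 at 0.01 with that term. Medians were -0.09 over 8 cardiomyocyte markers, -0.02 over 5 adipocyte markers, -0.10 over 12 mesothelial, nerve and atrial markers and 0.37 over 4 skeletal muscle markers. The skeletal muscle median was -0.06 without KO ifetroban replicate 3, the library with the most Myh1 counts. The slope term gave -0.25 for the adipocyte and -0.48 for the mesothelial, nerve and atrial median. Plin4, for a lipid droplet protein, differed by 0.52 ± 0.15, Myl4, for the atrial myosin light chain, by 0.53 ± 0.27, and Ckm, for muscle creatine kinase, by -0.14 ± 0.10. Plin4 was at 0.20 with the slope set as a term.

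**Figure D5:**
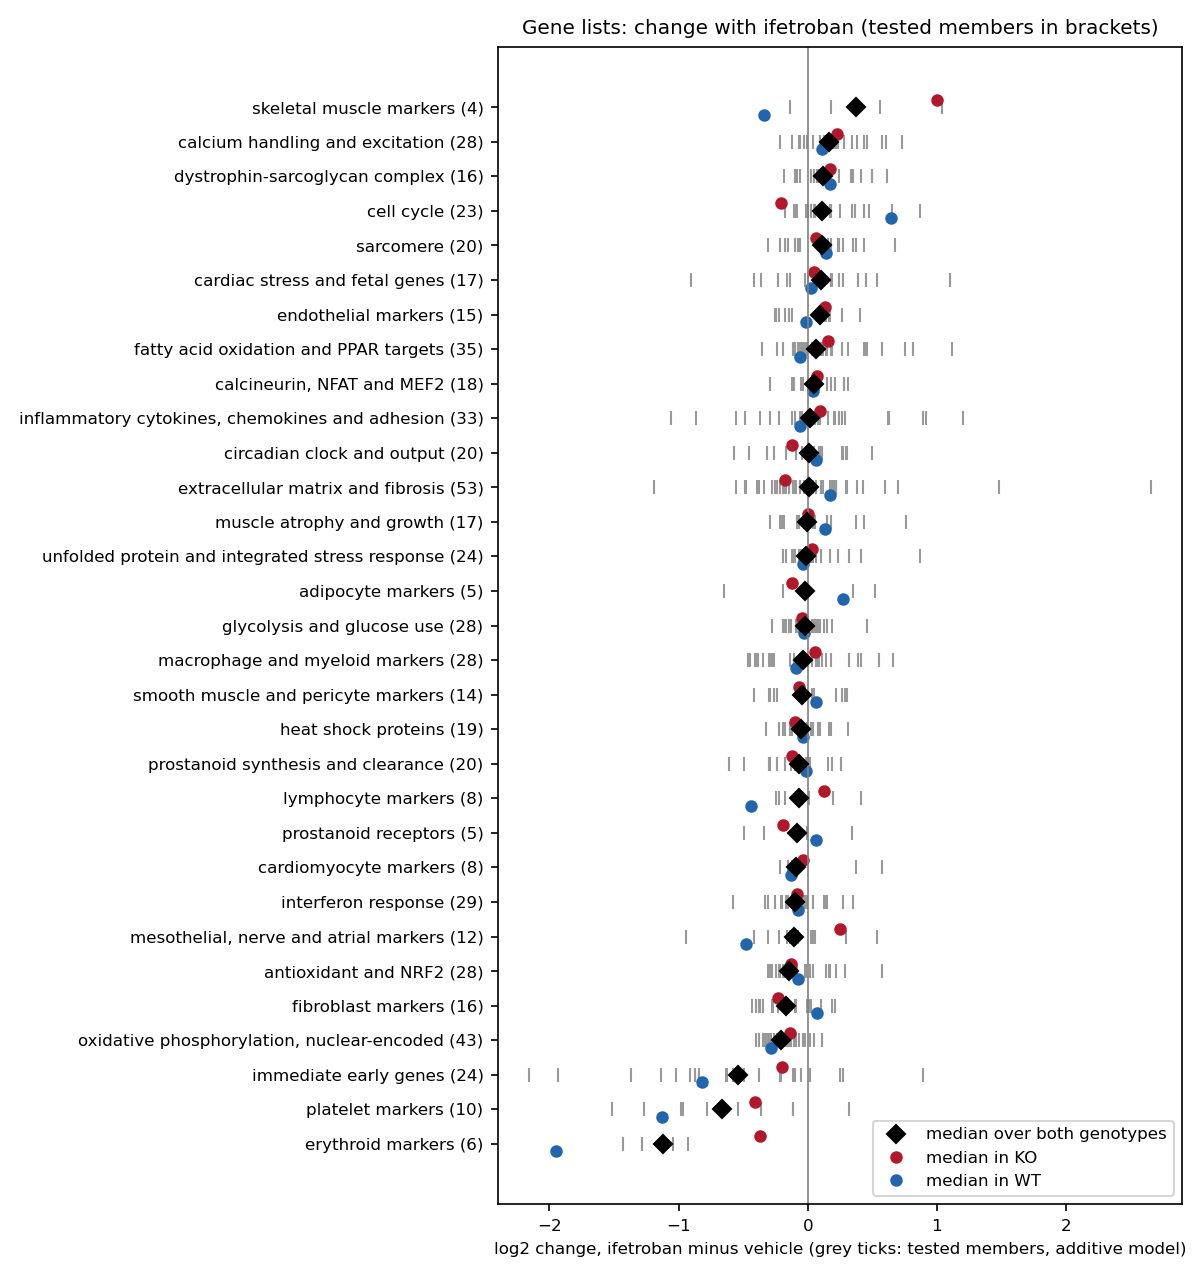
Log2 change, ifetroban minus vehicle (horizontal axis), for 31 gene lists (rows, number of tested genes in brackets). Grey ticks are genes, black diamonds the list medians over both genotypes, red and blue circles the medians in KO and WT; most medians lie within 0.2 of 0, and those of erythroid (-1.12), platelet (-0.66) and immediate early genes (-0.54) are lowest.

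Whether ifetroban acted differently in KO than in WT was tested by the interaction, and 0 of 15549 genes passed (0%; edgeR, smallest adjusted p 1.00), with 298 at an unadjusted p under 0.05 (1.92%). DESeq2 and limma-voom also called 0, with 234 (1.5%) and 304 at an unadjusted p under 0.05. Within KO alone 0 genes passed (615, or 3.96%, at an unadjusted p under 0.05), and within WT alone 0 (350, or 2.25%). The log2 changes in KO and in WT had a Spearman coefficient of 0.32 across the 15549 genes, which share the length gradient described above. Of the genes with the smallest interaction p, Frzb, for a secreted Wnt antagonist, was at 9.60, 8.64 and 11.7 CPM in KO ifetroban and 7.91 and 5.95 CPM in WT ifetroban, against 12.3 and 13.5 CPM in vehicle-treated KO and 3.23 and 3.48 CPM in vehicle-treated WT. The ifetroban libraries were below vehicle in KO and above it in WT (-0.37 ± 0.18 and 1.04 ± 0.22; interaction, unadjusted p = 0.000591). Thbs4, for the matrix protein thrombospondin 4, had the same order, at 16.6, 14.0 and 12.8 CPM in KO ifetroban and 6.46 and 6.54 CPM in WT ifetroban, against 18.5 and 24.8 CPM in vehicle-treated KO and 4.57 and 4.05 CPM in vehicle-treated WT (-0.59 ± 0.17 and 0.60 ± 0.21). Kap, the kidney androgen-regulated protein gene, was at 0.515, 0 and 0 CPM in KO ifetroban and 4.80 and 0.125 CPM in WT ifetroban, against 5.24 and 1.45 CPM in vehicle-treated KO and 0.0513 and 0 CPM in vehicle-treated WT, and its fitted log2 values are no measure of fold.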

How the data were processed

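Left ventricle RNA-seq of 9 libraries was analysed from the expected counts per gene that the authors deposited. Tools named in the submitters' processing notes are Partek, STAR and bcl2fastq, with mm10 as the build; how reads were counted is not stated there or in the labels. Of the deposited values 28.2% were not whole, and 81.2% lay within 0.01 of a whole number. The table holds 20634 genes, 0 of them mitochondrially encoded. A set of 8 pseudogenes resembling mitochondrial genes held 19.8% to 28.6% of counts. Coordinates are the deposited ones with 1 subtracted from the end.

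Expected counts were rounded, filterByExpr (minimum count 10) kept 15549 genes, and TMM factors scaled the libraries. The main test was edgeR 4.0.16 (quasi-likelihood, robust, R 4.3.3) with genotype and treatment as terms, adjusted by the Benjamini-Hochberg method over all genes with a threshold of 0.05. An interaction model had 4 group means. Alternatives used limma 3.58.1, DESeq2 1.42.0, other filters and scalings, an offset of splines on length and GC content (4 degrees of freedom), the length-slope sets, other treatments of the doubtful labels, replicate blocks and each library left out. SE is the log2 change divided by the square root of F. Transcript length came from GENCODE M21, found for 96.1% of genes. Totals of 21510263 to 30182955 counts set the counting precision, and edgeR's common coefficient of variation was 0.168. The edgeR tests of both comparisons, not the alternatives, were checked on simulated counts with 200 changed genes and no length slope. Over both genotypes 68% of log2 changes of 1 and 94% of those of 2 were recovered, with 11 false calls. For the interaction these were 11% and 67%, with 12 false calls, so most interaction changes of 1 would be missed.

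Libraries were grouped by title. The comparison and the 31 gene lists (675 entries, 626 tested) were chosen with earlier results of these data known. A further list is not reported here. Named genes are Sgcd, Tbxa2r, Tbxas1, Ptgs1, Ptgs2, Nppa, Nppb, Myh7 and Ankrd1, the 5 of smallest p in each direction whose mean reached 1 CPM, without predicted symbols, the list member of smallest p and the 3 of smallest interaction p. Other genes were named after their values were seen. RefSeq promoter windows (GRCm38.p6) matched both genes shown.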

Additional observations from a re-analysis of the deposited data

Results flagged for a closer look

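A library far from the others of its treatment was looked for in the named genes and the list levels, in 164 groups of libraries, and 13 were marked. Chance marks about 1 in 20 independent groups of like libraries. These groups share libraries and each mixes both genotypes, so that rate does not hold here.

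KO ifetroban replicate 1, whose labels conflict and whose length slope is negative, was far below the other 4 ifetroban libraries in 6 genes with long transcripts. It had 31.3 CPM of Bcl9l, 87.4 CPM of Dmd, 159 CPM of Cacna1c, 12.1 CPM of Igf1r, 1021 CPM of Ryr2 and 118 CPM of Plin4, where the other ifetroban libraries had 41.8 to 46.2, 159 to 192, 289 to 333, 20.6 to 24.7, 1993 to 2152 and 191 to 228 CPM. The median log2 deviation of its list members was also lowest, at -0.17 for calcineurin, NFAT and MEF2 and -0.20 for the dystrophin-sarcoglycan complex. The 3 vehicle libraries that share its slope had similar levels of Ryr2. The part of the slope in these values was not tested.

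Pfkfb1 stood out in WT ifetroban replicate 1 at 9.004 CPM, and P2ry12 in WT ifetroban replicate 2 at 0.833 CPM. Among vehicle libraries, Myh7 was at 667 CPM in KO vehicle replicate 2, with 158 to 192 CPM in the others. Sgcd was at 20.9 CPM in WT vehicle replicate 2, with 8.36 to 9.64 CPM in the other vehicle libraries. The WT ifetroban libraries had 23.7 and 23.5 CPM of it. WT vehicle replicate 1, at 8.36 CPM, was thus the library unlike the others labelled WT. Interferon response genes had a median deviation of -0.25 in WT vehicle replicate 1.

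Every ifetroban library moved against the vehicle mean in opposite directions in the genotypes for 2 lists, a difference that was not tested. The mean list level of fatty acid oxidation and PPAR targets differed by 0.15 in KO and -0.05 in WT, a gap of 0.20 on the log2 scale. That of smooth muscle and pericyte markers differed by -0.09 in KO and 0.10 in WT, a gap of -0.19.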

How the results depend on the processing

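The count of genes past the threshold stayed at 0 for ifetroban over both genotypes in 22 of 24 alternatives and for the interaction in all 18. It was 2 with the DESeq2 Wald test, and 28 (14 higher, 14 lower) within the negative-slope libraries, where 1 KO ifetroban library stood against 2 KO vehicle libraries. Leaving out each library in turn gave 0 to 0, with 513 to 3448 genes at an unadjusted p under 0.05, and no library without which a gene passed. Counting KO ifetroban replicate 1 as vehicle gave 0, with a smallest adjusted p of 0.066 (4327 genes at an unadjusted p under 0.05). Without the 2 libraries in doubt, an alternative chosen after seeing the data, it was 0 with 2168.

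Whether replicate numbers pair the libraries cannot be told from these data. Deviations of same-numbered libraries from their group means had correlations of -0.06 to 0.08, but the 2 WT pairs necessarily give the same value. The length slope also separates replicates of WT vehicle and of KO ifetroban, so an effect shared by same-numbered libraries could be hidden. With the replicate block 0 genes passed in either comparison (smallest adjusted p 0.122 over both genotypes), and with the block and the length and GC offset 0.

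Signs turned as follows, with the cause not tested. The fit within the negative-slope libraries compares treatments in KO alone, and that within the positive-slope libraries in WT alone. Slope set and genotype cannot be told apart in those values. With the slope set as a term, log2 changes were -0.052 for Sgcd, 0.55 for Ptgs2, -0.066 for Myh7, 0.090 for Ankrd1, -0.011 for Cacna1c, 0.0086 for Ndufa5, 0.0082 for Hspe1, -0.019 for Ryr2, 0.025 for Ckm, 0.068 for Thbs4 and 0.35 for Kap. Within the negative-slope libraries they were -0.32 for Sgcd, 0.33 for Tbxas1, 0.59 for Ptgs2, 0.092 for Nppb, -1.11 for Myh7, -0.089 for Neb, -0.10 for Dmd, -0.12 for Cacna1c, 0.13 for Ndufa5, -0.070 for Ern1, 0.052 for Ckm and -0.42 for Frzb. Within the positive-slope libraries they were 0.54 for Ptgs2, 0.22 for Nppa, 0.22 for Ankrd1, 0.033 for Hspe1, -0.057 for Ryr2, -0.018 for Myl4, 0.67 for Thbs4 and 8.995 for Kap. Myh7 was at -0.12 with the length and GC offset and -0.072 with the block added, where Nppb was at 0.036. Tbxas1 was at 0.025 with limma-voom and 0.0034 without a filter. Ptgs1 was at 0.048 with KO ifetroban replicate 1 as vehicle and 0.012 without the 2 libraries in doubt. With equal weights for the genotypes Thbs4 was at 0.0044 and Kap at 1.01. Leaving out 1 library gave -0.089 to 0.16 for Tbxas1, -0.15 to 0.033 for Ptgs1, -0.11 to 0.80 for Myh7, -0.27 to 0.13 for Thbs4 and -3.79 to 0.52 for Kap. Ucp3 stayed between 0.63 and 0.89 in its 24 alternatives and passed with DESeq2 alone. Kap was near 0 in most libraries, so its fitted values are no fold. With the slope set as a term, 6 of the 31 list medians moved by more than the spread between libraries, as did 14 within the negative-slope and 11 within the positive-slope libraries, and with DESeq2 size factors 0 of 31 did and 0 of the 51 genes turned sign.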
